A study of Mus musculus with 6 samples.

Results

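A set of 10 genes that glucocorticoid hormones are known to induce were followed in the lungs of smoke-exposed mice: Fkbp5, Sgk1, Tsc22d3, Zbtb16, Klf9, Cdkn1a, Errfi1, Fam107a, Mt1 and Mt2. They are 10 of the 55573 genes in the count table, matched by Ensembl identifier to their symbols in GENCODE M21. They were chosen by name after an earlier look at these libraries had shown lower levels of such genes with SS-31, so their SS-31H_CS over CS differences are given here as a description and carry no test. The SS-31H_CS group (3 libraries) came from wild-type C57BL/6 mice exposed to cigarette smoke and given SS-31, a mitochondria-targeted peptide antioxidant, at 5 mg/kg once a day, which the labels call a high dose. The CS group (3 libraries) came from wild-type C57BL/6 mice that met smoke for 4 weeks, on 5 days of each week and in 2 daily sessions lasting 75 min. All mice were 9 to 10 weeks old and were kept with 12 h of light a day. All lungs had met smoke, and no smoke-free lungs were among the 6 libraries. The schedule is spelled out for CS alone. The labels state neither whether each library is a separate mouse nor the hour at which lungs were taken, so p-values measure only the spread between these libraries, which may be technical.

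Glucocorticoids are steroid hormones of the adrenal gland whose blood level follows a daily rhythm and rises with stress. In the cell they bind the glucocorticoid receptor, which is held ready by the Hsp90 chaperone complex, moves to the nucleus and binds DNA at glucocorticoid response elements, imperfect palindromes of a short half-site. The 10 genes cover several branches of that response: feedback on the receptor (Fkbp5), signalling kinases and their inhibitors (Sgk1, Errfi1), transcription regulators (Tsc22d3, Zbtb16, Klf9), a brake on the cell cycle (Cdkn1a), an actin-associated protein (Fam107a) and metal-binding proteins (Mt1, Mt2). In the lung, inhaled or systemic glucocorticoids are used against inflammation.

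Each library held between 15611925 and 17360052 counts, and 16965 genes had enough counts to be tested, all 10 of these among them. Summed markers of alveolar type 2 cells were at 17859 to 23767 CPM (counts scaled to a common library size with TMM factors) in SS-31H_CS and 20131 to 22337 CPM in CS, as in lung tissue, and among the type 1 markers Pdpn is listed at 0 in all 6 libraries. CS replicate 3 stood apart from the other libraries: it held the highest value of the 6 in 27.5% of the tested genes and the lowest in 28.7%. The log2 fold changes of the 10 genes and the list medians are therefore given with and without it.

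With SS-31 all 10 genes had a negative log2 fold change (SS-31H_CS over CS), with a median of -1.41, against a median of 0.01 over all tested genes, of which 48.6% were negative. The fold changes ran from -0.38 (Tsc22d3) to -2.47 (Mt2). In 7 of the 10 every SS-31H_CS library lay below every CS library, an ordering found in 12.4% of all tested genes. Zbtb16, Mt1 and Mt2 were the 3 whose groups overlapped. Leaving out CS replicate 3 the same count was 7, against 17% of the tested genes, and the median was -0.87 (0.01 over all genes tested in that fit). In whole lung, fewer cells that use a gene and less RNA per cell cannot be told apart. A gene is called where the quasi-likelihood test of edgeR, adjusted over all genes, gave p under 0.05, which 0.153% of the tested genes reached (0.0825% lower and 0.0707% higher in SS-31H_CS). Of the 10 genes 1, Fam107a, was called, and since the comparison itself was used in choosing them nothing is read from that count. The count also varied with the method. It was 7 with DESeq2 (941 of 16895 genes with an adjusted p called) and 8 with no low-count filter (648 of 29410 genes called). Without CS replicate 3 it was 3 (15 of 17418 genes called). It was 0 with RLE or unscaled library sizes, with limma or with any other library left out. For the gene lists given further on, 18.2% of all tested genes had an unadjusted p under 0.05 in edgeR (8.23% with a lower level in SS-31H_CS), and DESeq2 called 5.57% of the genes to which it gave an adjusted p.

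**Figure D1:**
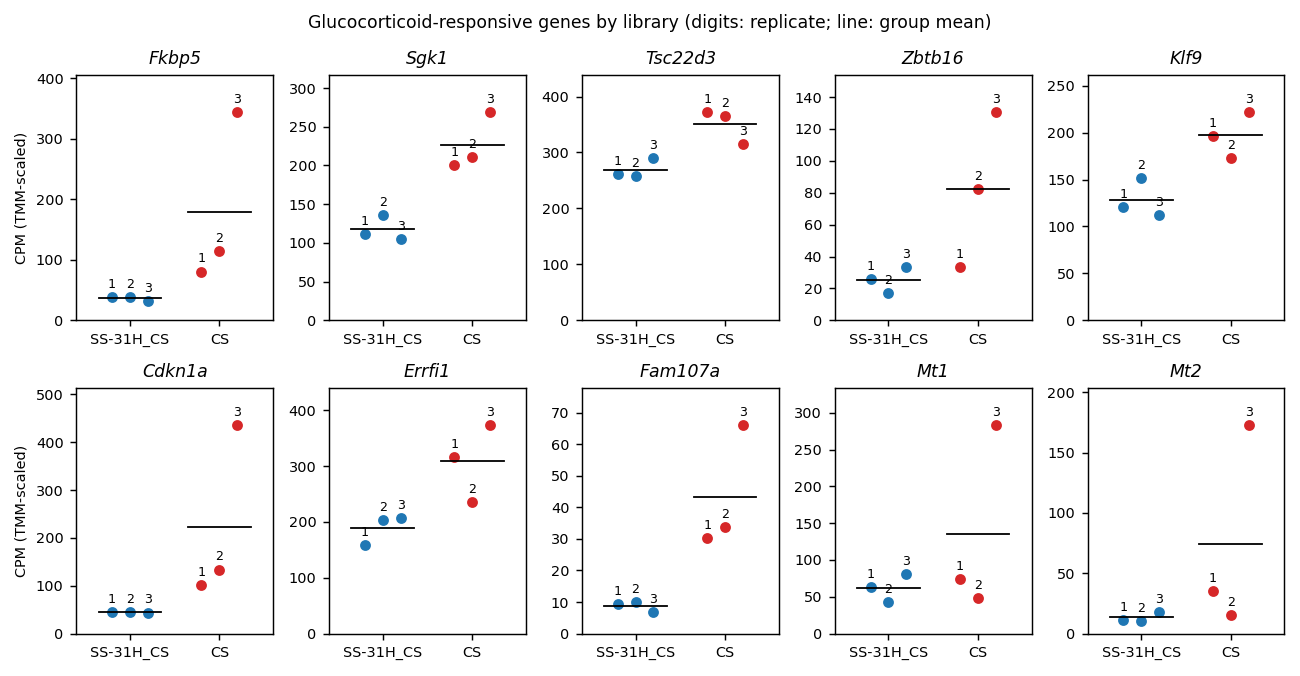
CPM of each of the 10 genes in the 6 libraries, SS-31H_CS on the left and CS on the right of each panel, with the replicate number above each point and the group mean as a line. CS replicate 3 is the highest point in 9 of the 10 panels, and in Cdkn1a the 3 SS-31H_CS points lie between 44.0 and 44.2 CPM.

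Fkbp5 encodes an Hsp90 co-chaperone that lowers the affinity of the receptor for its hormone, a feedback loop (ENSMUSG00000024222, chr17:28399094-28517527, GRCm38). It was at 39.1, 38.9 and 31.3 CPM in SS-31H_CS replicates 1, 2 and 3, against 80.7, 114 and 345 CPM in CS replicates 1, 2 and 3. The groups did not overlap, the SS-31H_CS libraries lay close together, and CS replicate 3 was 3.54 times the mean of the other CS libraries. The log2 fold change was -2.30 (SE 0.49), a level 4.93-fold lower in SS-31H_CS, and -1.42 without CS replicate 3.

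Sgk1 encodes a serum- and glucocorticoid-regulated kinase that raises sodium channel activity at the cell surface (ENSMUSG00000019970, chr10:21882184-21999903). Its levels were 112, 136 and 106 CPM in SS-31H_CS replicates 1, 2 and 3, against 200, 211 and 269 CPM in CS replicates 1, 2 and 3. Every CS library was above every SS-31H_CS library, and the value depended little on CS replicate 3, with a log2 fold change of -0.95 (SE 0.15) with it and -0.81 without it. Promoter windows of RefSeq (GRCm38.p6), reaching from 250 bases before to 50 bases after a transcript start, were found for 9 of the 10 genes, 20 windows in all. An Sgk1 start has a window, chr10:21993640-21993939 on the plus strand, that holds the whole palindrome, half-site AGAACA, 3 bases and half-site TGTTCT. It is shown because 3 of 32851 windows of that length in the mouse table hold the palindrome. Capitals mark it, from 189 to 175 bases before the start, and a lone half-site further upstream.

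Sgk1 window: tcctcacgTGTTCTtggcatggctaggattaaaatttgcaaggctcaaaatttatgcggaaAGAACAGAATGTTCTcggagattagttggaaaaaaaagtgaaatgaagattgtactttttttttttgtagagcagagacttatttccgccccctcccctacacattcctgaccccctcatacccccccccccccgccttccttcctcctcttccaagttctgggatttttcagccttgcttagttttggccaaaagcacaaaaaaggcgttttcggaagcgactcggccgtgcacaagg

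Either half-site, on either strand, lay in 6 of the 20 windows (those of Fam107a, Sgk1 and Tsc22d3), and in 19.0% of all windows in the table. These matches describe letters in short windows and do not show binding. Windows of the same gene can overlap, and a gene with several windows has more chances of a match. The shorter core ACA, 3 bases, TGT, which overlaps the palindrome, lay in 5 of the 20 windows (from Fam107a, Mt1 and Sgk1) and in 6.85% of all windows. The E-box CACGTG, which clock and other factors bind, lay in 2 of the 20 windows (from Fkbp5 and Sgk1) and in 7.15% of all windows. TGACG, the core of the cyclic AMP response element, lay in 6 of the 20 windows and in 20.8% of all windows. The 6 came from Errfi1, Fam107a, Klf9, Mt1, Sgk1 and Tsc22d3.

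Errfi1 encodes MIG6, an inhibitor of the epidermal growth factor receptor kinase (ENSMUSG00000028967, chr4:150853919-150868892). It was at 158, 204 and 207 CPM in SS-31H_CS replicates 1, 2 and 3, against 316, 236 and 373 CPM in CS replicates 1, 2 and 3. The groups were separate but close, with CS replicate 2 a little above the highest SS-31H_CS library. This gave a log2 fold change of -0.70 (SE 0.19), or -0.54 without CS replicate 3. Of 9 tested genes (of 10 listed, all but Erbb4) of epidermal growth factor receptor signalling 0 were called by edgeR and 2 by DESeq2 (edgeR put 2 at an unadjusted p under 0.05), with a median log2 fold change of -0.51, or -0.22 without CS replicate 3. The ligand gene Hbegf was at 44.0 ± 2.28 CPM in SS-31H_CS and 101 ± 50.9 CPM in CS (SD, n = 3 each; -1.20, SE 0.30, adjusted p = 0.127 by edgeR, and -0.71 without CS replicate 3). The receptor gene Egfr was at 20.9 ± 3.41 CPM in SS-31H_CS and 30.6 ± 3.31 CPM in CS (-0.55, adjusted p = 0.144), and the ligand gene Areg at 4.52 ± 2.47 CPM in SS-31H_CS and 8.74 ± 4.26 CPM in CS (-0.95, adjusted p = 0.357; -0.54 without CS replicate 3).

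Among the transcription regulators, Tsc22d3 behaved unlike the other 9 genes. It encodes GILZ, a leucine zipper protein that mediates anti-inflammatory effects of glucocorticoids (ENSMUSG00000031431, chrX:140539528-140600659). Its levels were 261, 258 and 289 CPM in SS-31H_CS replicates 1, 2 and 3, against 372, 366 and 315 CPM in CS replicates 1, 2 and 3. CS replicate 3, the highest library for the other 9 genes, was the lowest CS library here, at 0.852 times the mean of CS replicates 1 and 2. The log2 fold change was the smallest of the 10, at -0.38 (SE 0.12), and -0.46 without CS replicate 3.

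Zbtb16 encodes PLZF, a zinc finger repressor of transcription (ENSMUSG00000066687, chr9:48654297-48836222). It was at 25.8, 16.9 and 33.3 CPM in SS-31H_CS replicates 1, 2 and 3, against 33.2, 82.6 and 131 CPM in CS replicates 1, 2 and 3. CS replicate 1 fell within the SS-31H_CS range, so the groups overlapped, and the 3 CS libraries were spread widely. On the log2 scale the difference was -1.70 (SE 0.45), or -1.20 without CS replicate 3. Klf9 encodes a Krüppel-like factor (ENSMUSG00000033863, chr19:23141226-23168134), with 121, 152 and 112 CPM in SS-31H_CS replicates 1, 2 and 3, against 197, 173 and 222 CPM in CS replicates 1, 2 and 3. Its groups were separate, with a log2 fold change of -0.62 (SE 0.15) and of -0.53 without CS replicate 3.

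Cdkn1a encodes p21, an inhibitor of cyclin-dependent kinases that p53 also induces (ENSMUSG00000023067, chr17:29090976-29100727). It was at 44.2, 44.2 and 44.0 CPM in SS-31H_CS replicates 1, 2 and 3, against 101, 134 and 436 CPM in CS replicates 1, 2 and 3. Its SS-31H_CS libraries were almost identical, and CS replicate 3 was 3.71 times the mean of the other CS libraries. Its log2 fold change was -2.34 (SE 0.50), or -1.41 without CS replicate 3. An unclassified transcript on the other strand covers 7.68% of its exon length, and its own counts were 12, 9 and 2 in SS-31H_CS replicates 1, 2 and 3 and 15, 32 and 54 in CS replicates 1, 2 and 3.

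Of 16 genes of the p53 response, Trp53 among them, 0 were called by edgeR and 0 by DESeq2 (edgeR put 3 at an unadjusted p under 0.05), and their median log2 fold change was -0.06, or 0.02 without CS replicate 3. Their share at an unadjusted p under 0.05 was near that of all tested genes. The nuclease gene Aen was at 25.5 ± 1.45 CPM in SS-31H_CS and 36.8 ± 7.14 CPM in CS (-0.53, adjusted p = 0.149 by edgeR). The stress gene Sesn2 was at -0.34 on the log2 scale (adjusted p = 0.189), and the cell death gene Bbc3 at 0.34 (adjusted p = 0.259).

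Fam107a encodes an actin-associated protein that stress and glucocorticoids induce in the brain (ENSMUSG00000021750, chr14:8296274-8318023). Its levels were 9.40, 9.96 and 6.88 CPM in SS-31H_CS replicates 1, 2 and 3, against 30.3, 33.8 and 65.9 CPM in CS replicates 1, 2 and 3. The groups were far apart, with the lowest CS library well above the highest SS-31H_CS library. The log2 fold change was -2.31 (SE 0.31), 4.95-fold lower in SS-31H_CS, and -1.88 without CS replicate 3. The window of a start on the minus strand, chr14:8309730-8310029, is shown for comparison with that of Sgk1. Capitals mark a half-site and, nearer the start, a half-site joined to the core of the palindrome.

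Fam107a window: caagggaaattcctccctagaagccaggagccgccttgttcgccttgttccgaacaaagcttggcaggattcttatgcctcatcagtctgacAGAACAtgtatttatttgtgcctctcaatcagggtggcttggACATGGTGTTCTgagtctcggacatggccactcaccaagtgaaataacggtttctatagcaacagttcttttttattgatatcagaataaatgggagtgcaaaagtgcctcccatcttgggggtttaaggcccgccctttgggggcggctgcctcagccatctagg

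Mt1 and Mt2 encode metallothioneins, small cysteine-rich proteins that bind zinc and copper and are induced by metals as well as by glucocorticoids. The genes are neighbours, Mt2 at chr8:94172664-94173568 (ENSMUSG00000031762) and Mt1 at chr8:94179082-94180327 (ENSMUSG00000031765). Their windows, both on the plus strand, are shown because metals act on them through metal response elements. Capitals mark the core of that element, TGCACNC or TGCGCNC on either strand, with 3 cores in the Mt1 window (chr8:94178839-94179138) and 4 in the Mt2 window (chr8:94172368-94172667). At least 3 lay in 1.97% and at least 4 in 0.517% of all windows. At least 1 core lay in 5 of the 20 windows (from Mt1, Mt2, Fam107a and Sgk1), and in 25.7% of all windows.

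Mt1 window: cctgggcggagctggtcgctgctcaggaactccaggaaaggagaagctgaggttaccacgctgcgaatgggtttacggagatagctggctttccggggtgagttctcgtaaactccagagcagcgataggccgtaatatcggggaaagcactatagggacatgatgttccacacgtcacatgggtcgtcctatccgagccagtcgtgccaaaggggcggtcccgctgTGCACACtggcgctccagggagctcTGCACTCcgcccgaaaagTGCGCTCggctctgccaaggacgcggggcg
Mt2 window: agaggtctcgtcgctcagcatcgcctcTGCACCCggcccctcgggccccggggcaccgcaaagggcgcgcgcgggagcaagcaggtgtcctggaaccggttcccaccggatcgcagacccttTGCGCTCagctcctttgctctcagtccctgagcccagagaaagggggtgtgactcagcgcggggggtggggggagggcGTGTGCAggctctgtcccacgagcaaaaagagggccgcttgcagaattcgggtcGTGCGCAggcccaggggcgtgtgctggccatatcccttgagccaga

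Mt1 was at 63.1, 42.5 and 80.7 CPM in SS-31H_CS replicates 1, 2 and 3, against 74.1, 48.3 and 283 CPM in CS replicates 1, 2 and 3. CS replicates 1 and 2 lay within the SS-31H_CS range, and the log2 fold change of -1.12 (SE 0.60) rested on CS replicate 3: without it the value was 0.02. Mt2 was at 11.5, 10.7 and 17.9 CPM in SS-31H_CS replicates 1, 2 and 3, against 35.6, 15.1 and 173 CPM in CS replicates 1, 2 and 3. CS replicate 2 fell within the SS-31H_CS range. The log2 fold change was -2.47 (SE 0.79), or -0.93 without CS replicate 3.

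There were 5.51, 3.97 and 4.50 Mt1 counts for each Mt2 count in SS-31H_CS replicates 1, 2 and 3, against 2.08, 3.20 and 1.64 in CS replicates 1, 2 and 3. Every CS ratio thus lay below every SS-31H_CS ratio, although the levels of both genes overlapped between the groups. The ratio was not set against that of other gene pairs. The annotated antisense gene Gm45774 covers 73.5% of the Mt2 exon length. It had 22, 36 and 33 counts in SS-31H_CS replicates 1, 2 and 3 and 36, 17 and 153 in CS replicates 1, 2 and 3, high in the same library as Mt2. The sources used here do not state whether counting used strand, so reads of Mt2 and Gm45774 may not be told apart. The longest exact run shared by Mt1 and Mt2 transcripts was 20 bases.

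Among 4 tested genes of metal handling (of 7 listed) 0 were called by edgeR and 1 by DESeq2 (edgeR put 1 at an unadjusted p under 0.05), with a median of -0.18, or -0.10 without CS replicate 3. The zinc and iron transporter gene Slc39a14 was at 20.7 ± 5.00 CPM in SS-31H_CS and 39.3 ± 16.2 CPM in CS (-0.92, adjusted p = 0.174 by edgeR; -0.54 without CS replicate 3). The zinc transporter gene Slc39a10 (-0.19, adjusted p = 0.445) and Mtf1, which encodes the metal-sensing transcription factor (-0.15, adjusted p = 0.555), had smaller values. Slc30a1 and the family members Mt3 and Mt4 had too few counts to test, and Mt4 is listed at 0 throughout.

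**Figure D2:**
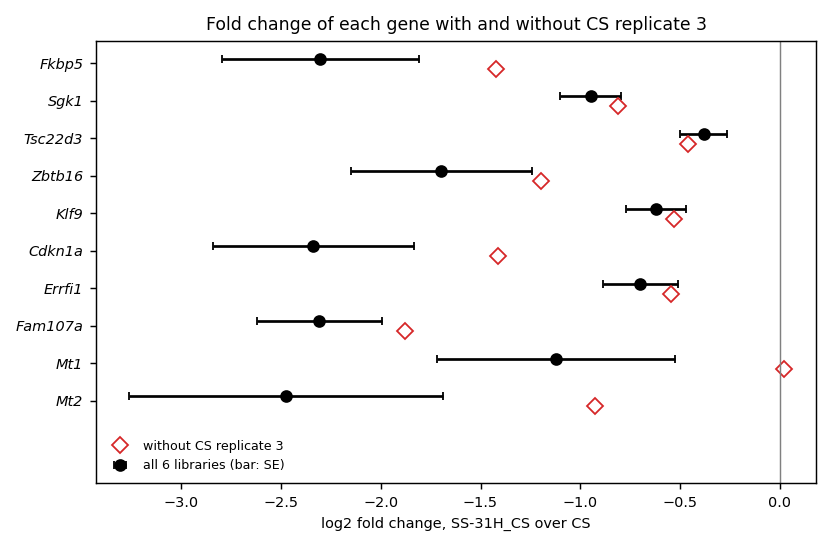
Log2 fold change (SS-31H_CS over CS) of each gene with all 6 libraries (filled circles, bars are SE) and without CS replicate 3 (open diamonds). Without that library 9 of the 10 values lie nearer to or past 0 and Mt1 is at 0.02, while Tsc22d3 lies further from 0.

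Levels of different genes were compared on the deposited FPKM, which divide by gene length. The place of Mt2 is uncertain, as its reads may not be told apart from those of Gm45774. In SS-31H_CS the order was Tsc22d3 (63.1 ± 3.43 FPKM, SD, n = 3), Errfi1 (54.0 ± 8.46), Mt1 (50.5 ± 14.7), Klf9 (27.2 ± 5.15), Sgk1 (24.5 ± 3.96), Mt2 (23.1 ± 6.54), Cdkn1a (12.6 ± 0.349), Zbtb16 (4.85 ± 1.49), Fkbp5 (3.92 ± 0.526) and Fam107a (2.30 ± 0.473). Errfi1 and Mt1 lay within 1 SD of each other, as did Klf9 and Sgk1, Sgk1 and Mt2, and Zbtb16 and Fkbp5, while the other neighbours in that order lay further apart. By the CS mean the metallothioneins stood first, Mt2 at 121 ± 137 and Mt1 at 104 ± 96.8 FPKM, with an SD about as large as the mean. Below them came Errfi1 (84.0 ± 16.5), Tsc22d3 (79.3 ± 9.11), Cdkn1a (60.7 ± 48.5), Sgk1 (45.2 ± 6.14), Klf9 (40.1 ± 3.79), Fkbp5 (18.3 ± 14.2), Zbtb16 (15.1 ± 8.65) and Fam107a (10.9 ± 4.61 FPKM). The first place of the metallothioneins rested on CS replicate 3. In CS replicates 1, 2 and 3 Mt2 was at 59.62, 25.76 and 278.78 FPKM, and Mt1 at 58.55, 38.93 and 215.59 FPKM. In CS replicates 1 and 2 both lay below Errfi1 (86.76 and 66.34 FPKM) and Tsc22d3 (84.47 and 84.73 FPKM). Cdkn1a likewise lay below Sgk1 in CS replicates 1 and 2 (27.88 and 37.91 against 40.28 and 43.33 FPKM). Every pair of neighbours in CS but Klf9 and Fkbp5 lay within the larger SD of the pair.

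With CS replicate 3 included, the CS libraries varied more among themselves than the SS-31H_CS libraries did in these genes. The coefficient of variation of CPM had a median over the 10 genes of 15.3% in SS-31H_CS and 52.3% in CS, against 13.5% and 13.6% over all tested genes. It was larger in CS for 9 of the 10 genes, all but Klf9, and for 49.0% of all tested genes. The coefficient was not calculated without CS replicate 3. As the comparison was used in choosing the 10 genes, these values are a description and carry no test. CS replicate 3 was over 1.5 times the mean of CS replicates 1 and 2 in 6 of the 10 (Fkbp5, Zbtb16, Cdkn1a, Mt1, Mt2 and Fam107a), and in 7.50% of all tested genes. In SS-31H_CS, replicate 3 was the lowest for 5 of the 10, replicate 2 for 4 and replicate 1 for 1.

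With each gene centred and scaled over the 6 libraries, the mean of the 10 was at -0.82, -0.72 and -0.66 SD units in SS-31H_CS replicates 1, 2 and 3, against 0.42, 0.34 and 1.43 in CS replicates 1, 2 and 3. Pearson's r of each gene with the mean of the other 9, over 6 libraries that share that group difference, ran from 0.59 (Tsc22d3) and 0.68 (Mt1) to 0.97 (Fkbp5) and 0.98 (Cdkn1a). Among 15746 other genes averaging 1 CPM or more, 5.33% had an r over 0.9 with the mean of the 10. The 5 most alike were Ap3b1, Tcf12, Dph3, Eif3a and Dpp9, with r of 0.99 or higher. Their log2 fold changes ran from -0.13 for Tcf12 to -0.54 for Dpp9, and none was called.

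Of 7 tested genes for receptors and steroid supply (of 8 listed, Serpina6 having too few counts) 0 were called by edgeR and 1 by DESeq2 (edgeR put 3 at an unadjusted p under 0.05), with a median log2 fold change of -0.27, or -0.31 without CS replicate 3. H6pd, whose product supplies the cofactor for making active hormone, was at 285 ± 37.2 CPM in SS-31H_CS and 383 ± 18.1 CPM in CS (-0.43, SE 0.13, adjusted p = 0.165 by edgeR). The mineralocorticoid receptor gene Nr3c2 was at 20.7 ± 4.49 CPM in SS-31H_CS and 13.7 ± 3.03 CPM in CS (0.59, adjusted p = 0.226). Hsd11b2, whose product inactivates the hormone, was low, at 1.63 ± 0.321 CPM in SS-31H_CS and 3.82 ± 2.58 CPM in CS (-1.22, adjusted p = 0.237; -0.52 without CS replicate 3).

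Another pair of this list was named after its values were seen. The glucocorticoid receptor gene Nr3c1 was at 131, 154 and 144 CPM in SS-31H_CS replicates 1, 2 and 3, against 133, 139 and 107 CPM in CS replicates 1, 2 and 3. The groups overlapped, at 0.18 on the log2 scale (SE 0.13, adjusted p = 0.497 by edgeR), and CS replicate 3 was the lowest library. Hsd11b1, whose product makes active hormone, was at 292 ± 46.7 CPM in SS-31H_CS and 351 ± 6.50 CPM in CS (-0.27, adjusted p = 0.340). Of 17 receptor chaperones and coregulators 0 were called by edgeR and 0 by DESeq2 (edgeR put 0 at an unadjusted p under 0.05), with a median of -0.09, or -0.05 without CS replicate 3. The chaperone gene Ppid (0.30, adjusted p = 0.316) and the coactivator genes Ncoa1 (-0.18, adjusted p = 0.343) and Ncoa3 (-0.23, adjusted p = 0.378) had the lowest p of that list.

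Other genes that glucocorticoids induce had mostly negative values, and none was called by edgeR. Of 26 tested, 0 were called by edgeR and 8 by DESeq2 (edgeR put 13 at an unadjusted p under 0.05, all lower in SS-31H_CS, against 8.23% of all tested genes), and 24 had a negative log2 fold change, with a median of -0.52 against 0.01 over all tested genes. CS replicate 3 was the highest library in 22 of the 26, and the median was -0.25 without it. The list was chosen with earlier results of these data known, so its counts and median are a description and carry no test. Hif3a, a hypoxia-inducible factor subunit gene, was at 5.26, 2.93 and 3.59 CPM in SS-31H_CS replicates 1, 2 and 3, against 11.7, 15.8 and 42.1 CPM in CS replicates 1, 2 and 3. Its groups did not overlap, at -2.56 on the log2 scale (SE 0.49, adjusted p = 0.0847 by edgeR; -1.81 without CS replicate 3).

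The kinase gene Map3k6 was at 47.5, 37.2 and 25.9 CPM in SS-31H_CS replicates 1, 2 and 3, against 83.6, 88.7 and 263 CPM in CS replicates 1, 2 and 3 (-1.98, SE 0.46, adjusted p = 0.109 by edgeR; -1.23 without CS replicate 3). Il1r2, the decoy receptor for interleukin 1, was at 17.6, 6.97 and 2.35 CPM in SS-31H_CS replicates 1, 2 and 3, against 42.7, 40.7 and 145 CPM in CS replicates 1, 2 and 3 (-3.09, SE 0.73, adjusted p = 0.115; -2.22 without CS replicate 3). In both genes the lowest CS library was above the highest SS-31H_CS library, and CS replicate 3 was far above the rest. Summed neutrophil markers were at 3404, 1299 and 462 CPM in SS-31H_CS replicates 1, 2 and 3, in the same order as Il1r2, against 3032, 2398 and 3508 CPM in CS replicates 1, 2 and 3. Their part in the Il1r2 value was not tested.

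**Figure D3:**
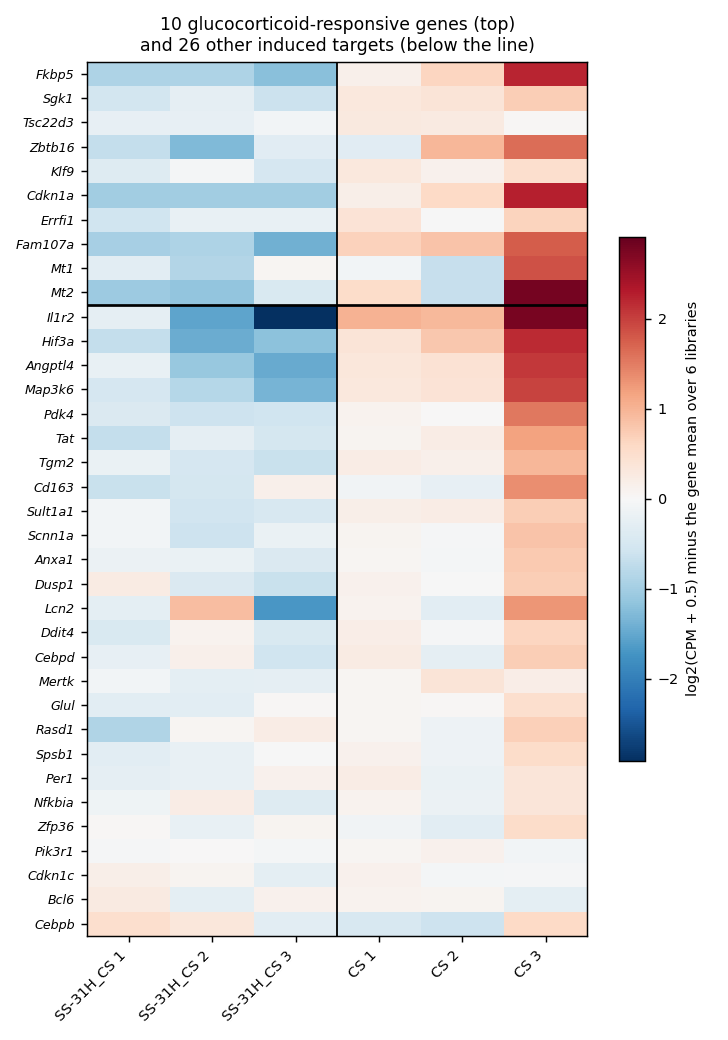
Log2(CPM + 0.5) minus each gene's mean over the 6 libraries, with SS-31H_CS columns left of CS columns, for the 10 genes (above the line) and 26 other glucocorticoid-induced genes ordered by log2 fold change. Reds gather in CS replicate 3, the highest library in 9 of the 10 and in 22 of the 26.

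Of 15 tested inflammatory genes (of 18 listed, Csf3, Ifng and Il6 having too few counts) that glucocorticoids repress 0 were called by edgeR and 2 by DESeq2 (edgeR put 4 at an unadjusted p under 0.05), with 10 negative and 5 positive log2 fold changes and a median of -0.43, or -0.17 without CS replicate 3. Single libraries were far from the rest in several of them. The chemokine gene Cxcl2 was at 0.473, 1.41 and 0.353 CPM in SS-31H_CS replicates 1, 2 and 3, against 29.0, 1.38 and 5.00 CPM in CS replicates 1, 2 and 3 (-3.98, adjusted p = 0.145 by edgeR). The chemokine gene Ccl20 was at 0.946, 38.7 and 0.118 CPM in SS-31H_CS replicates 1, 2 and 3, against 0.413, 0.745 and 0.432 CPM in CS replicates 1, 2 and 3 (4.62, adjusted p = 0.220). Nos2, the inducible nitric oxide synthase gene, was at 9.52 ± 2.85 CPM in SS-31H_CS and 23.3 ± 12.8 CPM in CS (-1.29, adjusted p = 0.182). CS replicate 1 held the highest Cxcl2 and Nos2 values and SS-31H_CS replicate 2 the highest Ccl20 value, and CS replicate 3 was not the highest library in any of these 3 genes.

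Of 21 tested relatives of the 10 genes (all but Sgk2 of 22 listed, from the FKBP, TSC22, SGK, KLF, CDKN1 and FAM107 families) 0 were called by edgeR and 2 by DESeq2 (edgeR put 5 at an unadjusted p under 0.05), with a median of -0.03, or 0.01 without CS replicate 3. Klf13 was at 187 ± 27.6 CPM in SS-31H_CS and 276 ± 25.2 CPM in CS (-0.56, adjusted p = 0.127 by edgeR), and Klf4 at 103 ± 12.3 CPM in SS-31H_CS and 189 ± 84.7 CPM in CS (-0.87, adjusted p = 0.175; -0.45 without CS replicate 3). Fkbp11, a relative of Fkbp5, had a positive value (0.61, adjusted p = 0.238). Of 9 tested immediate early genes (of 10 listed, Egr2 being listed at 0 throughout), which respond within minutes to many stimuli, 0 were called by edgeR and 1 by DESeq2 (edgeR put 2 at an unadjusted p under 0.05), with a median of -0.08, whose sign turned without CS replicate 3, to 0.28. Atf3 was at -1.31 on the log2 scale (adjusted p = 0.211; -0.45 without CS replicate 3), Nr4a1 at 0.57 (adjusted p = 0.224) and Jun at -0.19 (adjusted p = 0.503).

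**Figure D4:**
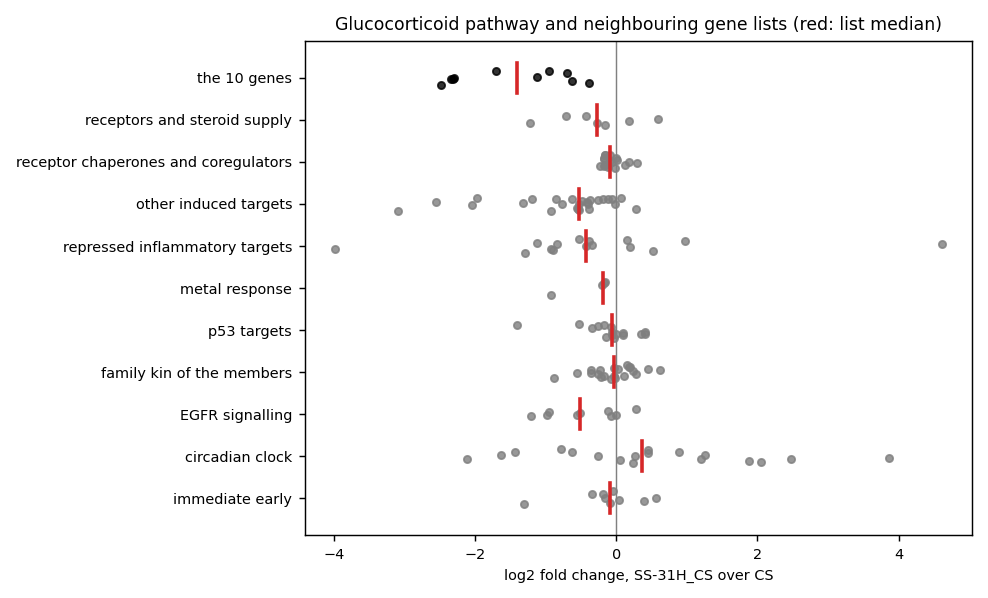
Log2 fold change (SS-31H_CS over CS) of the 10 genes (black) and of every tested gene in 10 further lists (grey), with the list median in red. The medians are -1.41 for the 10 genes, -0.52 for the other induced targets and -0.09 for receptor chaperones and coregulators.

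Genes of the circadian clock differed strongly in the same libraries. Of 18 tested, 6 rose (Dbp, Nr1d2, Per3, Hlf, Nr1d1 and Bhlhe41) and 1, Arntl, fell in SS-31H_CS by edgeR's test over all genes, which called 0.153% of those tested. DESeq2 called 12 of the 18, edgeR put 14 at an unadjusted p under 0.05, and the median was 0.36, or 0.41 without CS replicate 3. The clock list, too, was chosen with earlier results of these data known. Dbp, a clock output factor gene, was at 67.3, 74.3 and 101 CPM in SS-31H_CS replicates 1, 2 and 3, against 6.37, 6.19 and 4.08 CPM in CS replicates 1, 2 and 3. Its groups were far apart (3.86, SE 0.23, adjusted p = 0.00191 by edgeR). Arntl, the gene of the core activator BMAL1, was at 4.61, 6.17 and 6.29 CPM in SS-31H_CS replicates 1, 2 and 3, against 20.1, 24.1 and 29.7 CPM in CS replicates 1, 2 and 3 (-2.11, SE 0.21, adjusted p = 0.0207). The repressor genes Nr1d1 and Nr1d2 were at 2.47 and 2.04 on the log2 scale, Per3 at 1.88, Bhlhe41 at 1.25 and Hlf at 1.20. The calls depended on the libraries used, with 1 to 6 of the pathway genes called when any single library was left out. Without CS replicate 3, 6 genes of the clock list were called, Bhlhe41 being at an adjusted p of 0.0769. Per1, which both the clock and glucocorticoids drive and which was named after its values were seen, was at 161 ± 24.7 CPM in SS-31H_CS and 191 ± 35.7 CPM in CS (-0.25, adjusted p = 0.467). The part of the clock difference in the values of the 10 genes was not tested.

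Several marker lists moved with CS replicate 3. All 9 B cell, 10 T cell, 7 NK cell and 7 erythroid markers were tested, and each had its lowest value of the 6 libraries in CS replicate 3. Summed B cell markers were at 552 to 575 CPM in SS-31H_CS and 148 to 602 CPM in CS, T cell markers at 84.8 to 203 CPM in SS-31H_CS and 44.8 to 104 CPM in CS, and NK cell markers at 44.9 to 91.1 CPM in SS-31H_CS and 13.3 to 104 CPM in CS. Summed erythroid markers were at 869 to 990 CPM in SS-31H_CS and 228 to 825 CPM in CS. None of these lists had a marker at 0 in any library.

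Mesothelial markers were high in CS replicate 3 (summed 669 to 954 CPM in SS-31H_CS and 730 to 1809 CPM in CS, all 6 markers tested, 3 of them highest in that library). Alveolar macrophage markers were lower in every SS-31H_CS library than in any CS library (summed 676 to 1094 CPM in SS-31H_CS against 1541 to 1924 CPM in CS, 7 of 8 with a negative log2 fold change), and so were endothelial markers (summed 3212 to 4051 CPM in SS-31H_CS against 4267 to 5147 CPM in CS, 7 of 7). Ciliated cell markers went the other way (summed 707 to 1053 CPM in SS-31H_CS against 368 to 547 CPM in CS, 0 of 8 with a negative log2 fold change), and 8 of 8 also had their lowest value in CS replicate 3. Summed type 1 cell markers were at 4282 to 5376 CPM in SS-31H_CS and 5466 to 6785 CPM in CS. Of the 6 tested, 5 had a negative log2 fold change and 5 had their highest value in CS replicate 3. Fibroblast markers were at 3495 to 3854 CPM in SS-31H_CS and 2638 to 3415 CPM in CS, but single markers differed in direction (3 of 7 with a negative log2 fold change). The groups overlapped for club cell (29222 to 65740 CPM in SS-31H_CS, 25507 to 31032 CPM in CS), smooth muscle (554 to 910 CPM in SS-31H_CS, 660 to 794 CPM in CS), adipocyte (45.8 to 77.1 CPM in SS-31H_CS, 43.2 to 82.8 CPM in CS) and cardiac muscle markers (296 to 780 CPM in SS-31H_CS, 200 to 602 CPM in CS). Negative log2 fold changes were held by 0 of 7 club cell, 3 of 6 smooth muscle, 1 of 5 adipocyte and 1 of 6 cardiac muscle markers tested. The part of these cell types in the values of the 10 genes was not tested. Of all markers 1 was called, the club cell gene Scgb3a2, named after its values were seen, at 831, 608 and 906 CPM in SS-31H_CS replicates 1, 2 and 3, against 309, 306 and 250 CPM in CS replicates 1, 2 and 3 (1.44, SE 0.18, adjusted p = 0.0467 by edgeR, or 0.072 without CS replicate 3).

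**Figure D5:**
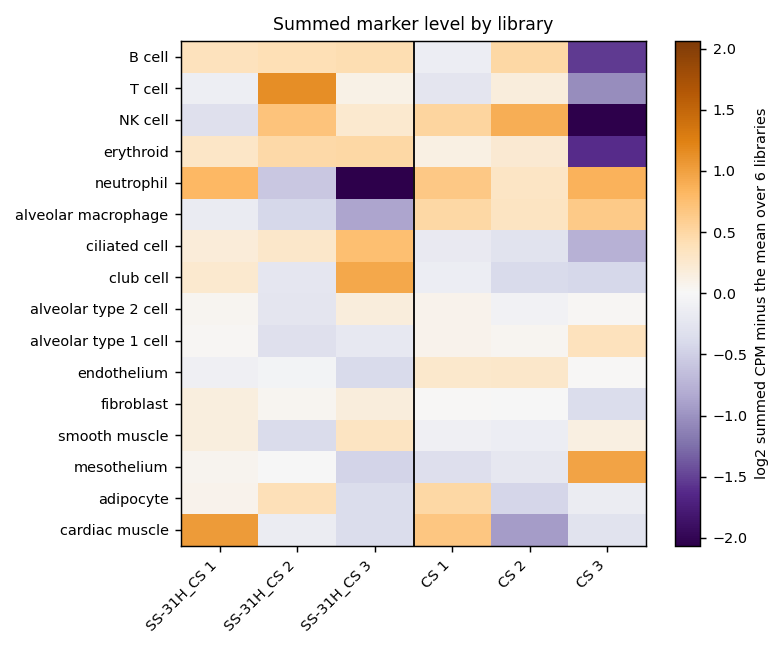
Log2 of the summed CPM of each cell type's markers minus its mean over the 6 libraries, SS-31H_CS columns left of CS columns. CS replicate 3 is the lowest library for B cell, T cell, NK cell and erythroid markers and the highest for mesothelial markers.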

How the data were processed

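Lung RNA was sequenced in 6 libraries (3 SS-31H_CS, 3 CS). The authors deposited raw read counts for 55573 Ensembl genes and FPKM for the same genes. The submitters' processing notes name cutadapt 1.9.1, HISAT2 2.0.1, HTSeq 0.6.1 and GRCm38. The annotation release, strand setting and filters are not given in the sources used here. Over 3310 genes with many counts the deposited FPKM followed count and library total within 0.387%, so they hold no further scaling. Symbols and coordinates came from GENCODE M21 (55394 identifiers matched).

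Counts were tested across all genes with edgeR 4.0.16 (R 4.3.3): TMM scaling, its low-count filter (minimum count 10, total 15), quasi-likelihood test, two-sided, Benjamini-Hochberg adjustment. SS-31H_CS stands over CS in every log2 fold change, and SE is the fold change over the root of the F statistic. In simulated counts for this comparison (16965 genes, 200 changed, 3 draws) the test called 52% to 58% of 2-fold and 90% to 95% of 4-fold changes, and 5.16% to 11.4% of its calls were false. Each simulated gene was drawn on its own, so no library stood apart as CS replicate 3 does in the real counts. These shares may therefore not hold for the real libraries. The 10 genes, the 10 pathway lists and the 16 marker lists were chosen with earlier results of these data known. The text names every pathway gene called, the 3 per pathway list with the lowest p, the 5 most alike in profile, marker lists by their sums, and any others as named after their values were seen. Alternatives were other size factors, filters, DESeq2 1.42.0, limma 3.58.1 (voom, and log2 of FPKM with a pseudocount of 1 or 0.1), a replicate block and each library left out. A count of 0 allows up to 3 counts, or 0.173 to 0.192 CPM per library, by counting error only. Whether a gene listed at 0 in all libraries lacked RNA or was left uncounted was not tested.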

Additional observations from a re-analysis of the deposited data

How the results depend on the processing

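All 10 genes kept a negative log2 fold change under the 15 alternatives, except Mt1, whose values with 1 library left out ran from -1.53 to 0.019 (0.019 without CS replicate 3). The median of the 10 ran from -1.75 to -0.87 with 1 library left out. Over all genes, 26 were called, against 12 with library size alone, 648 with no low-count filter, 941 with DESeq2, 6 with limma voom, 6 on log2(FPKM + 1), 5 on log2(FPKM + 0.1), and 1 to 15 with 1 library left out (15 without CS replicate 3, 1 without SS-31H_CS replicate 2 or CS replicate 1, and 2 without each of the others). Of the other pathway genes, 7 were called, against 24 with no low-count filter, 29 with DESeq2, 4 with limma voom, 3 on log2(FPKM + 1), 2 on log2(FPKM + 0.1), and 1 to 6 with 1 library left out. The cause was not tested. With the replicate block in edgeR 0 genes and 0 pathway genes were called (2682 genes had an unadjusted p under 0.05) and the median of the 10 was -1.25. With group means removed, same-numbered libraries correlated at 0.0072, 0.036 and -0.057, and differently numbered ones at -0.103 to 0.0712, so no pairing by number was seen. With 3 libraries in each group such values cannot settle whether libraries are paired.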
